A study of Arabidopsis thaliana with 9 samples.

Results

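The shoots of short-root mutants (shr-5) were compared directly with those of scarecrow mutants (scr-3), to find what the loss of SHR does beyond the loss of SCR. The comparison rests on 6 of the 9 arrays of the study, chosen by their genotype labels alone: 3 shr-5 and 3 scr-3 arrays, each a separate biological repeat. The other 3 arrays are Col-0 wild type (WT), and both mutants are labelled with the same ecotype. All RNA came from vegetative seedling parts, harvested when the plants had reached stage 1.04. The medium was MS, days had 16 h and nights 8 h, and the temperature was 22 °C. Each mutant was represented by 1 allele, and the labels give neither the number of seedlings in a sample nor whether they were grown side by side. The study's title asks about leaf growth and S-phase progression. Values are given for 20777 loci as log2 RMA values, an array measure in which a difference of 1 is a 2-fold difference in signal, and every difference below is shr minus scr unless it says otherwise.

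SHR and SCR are transcription factors of the GRAS family. In the root, SHR protein moves from the stele into the neighbouring cell layer, where it switches on SCR, and both factors together drive the asymmetric division that separates endodermis from cortex. Plants lacking either gene have short roots, but SHR also has targets that do not need SCR, and in leaves both genes act around the vasculature and in the bundle sheath.

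The transcript of SHR itself separated the mutants. SHR stood at 6.40, 6.23 and 6.19 in the scr arrays and at 4.70, 4.73 and 4.89 in the shr arrays, with WT at 6.61, 6.57 and 6.81. The shr arrays lay below all others, by 1.51 ± 0.10 (SE) against scr (adjusted p = 0.000374, limma). SCR stood at 7.63, 7.44 and 7.13 in scr and at 7.60, 7.43 and 7.35 in shr, so the groups overlapped (difference 0.06 ± 0.12, adjusted p = 0.847, limma). WT arrays held 7.96, 7.99 and 7.94, above both mutants, and the differences from WT were -0.57 in scr (adjusted p = 0.110, limma) and -0.51 in shr (adjusted p = 0.0399, limma). The SCR probes therefore do not tell the mutants apart, and they do not check the scr label, since where they lie relative to the scr-3 lesion is not stated.

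Of 20777 loci, 279 (1.34%) passed an adjusted p of 0.05 in limma with a two-sided test: 159 were higher in shr (0.765% of all loci) and 120 were lower (0.578%). Their median size was 0.68 on the log2 scale. A difference of at least 2-fold was found for 58 of them, 43 higher and 15 lower. In all 279 the 3 shr arrays lay entirely on one side of the 3 scr arrays, as they did for 21.0% of all loci (10.2% with shr higher and 10.8% with shr lower). The median over all loci was -0.01. Centring every array on a common median moved it to -0.05 and the split to 137 higher and 231 lower (37.2% higher, against 57.0%), so the balance of directions depends on the scaling. The arrays do not tell fewer cells of a type from less RNA per cell.

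The count depended on which arrays were used. The array shr replicate 3 correlated with the others at 0.971 to 0.979, whereas all other pairs reached 0.983 to 0.997. Without it, 610 loci passed (2.94% of all loci), 397 higher (1.91%) and 213 lower (1.03%). Of the 279 loci, 268 passed again. All 279 kept their sign, but this was fixed in advance, since their shr and scr arrays did not overlap. Leaving out 1 scr array had the opposite effect: 39, 33 and 56 loci passed without scr replicate 1, 2 and 3. Without WT replicate 1, 2 or 3 the counts were 177, 186 and 154, and without shr replicate 1 or 2 they were 421 and 124. Fitting the scr and shr arrays with no WT array left 24 loci, 14 higher and 10 lower. When shr replicate 3 was left out of that fit too, 353 passed, 252 higher and 101 lower. The causes of these changes in count were not tested.

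**Figure D1:**
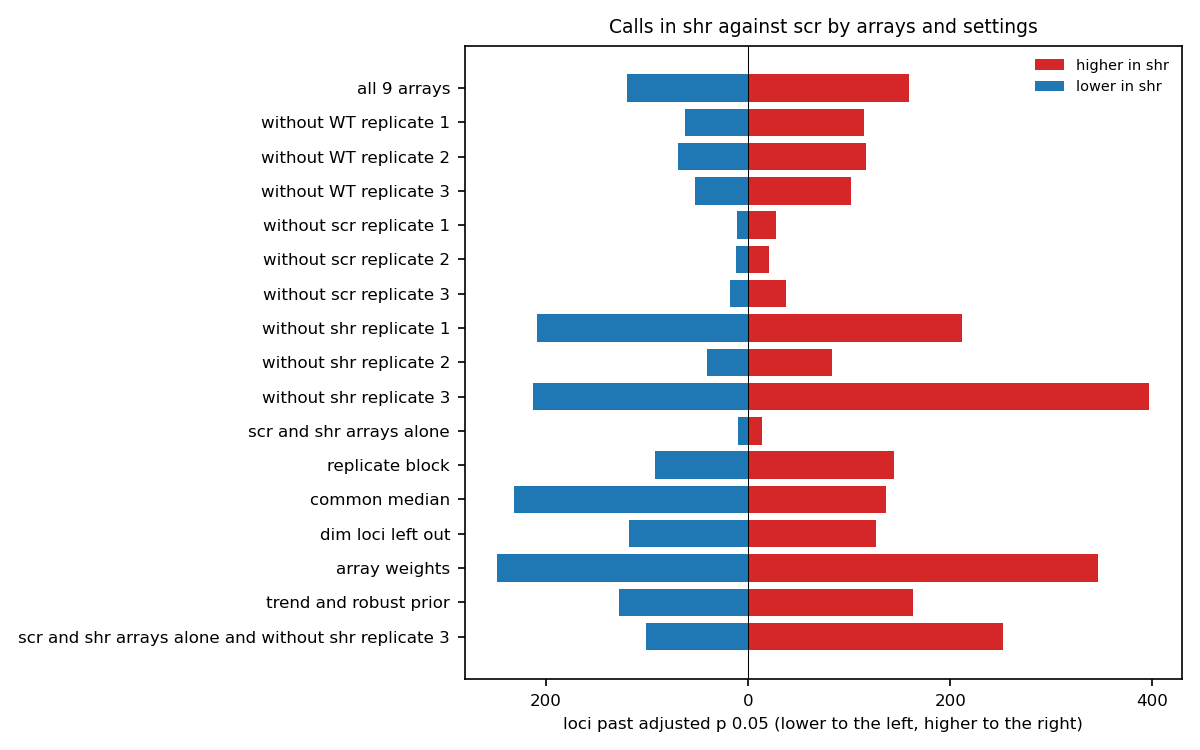
Number of loci past an adjusted p of 0.05 in shr against scr, for the fit to all 9 arrays and for each alternative; bars to the right count loci higher in shr and bars to the left loci lower in shr. The count ranges from 24 with the scr and shr arrays alone to 610 without shr replicate 3.

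A core of 25 loci passed in the fit to all arrays and in each of the 9 fits that left out 1 array, 16 higher and 9 lower. The lower ones with a symbol were THA2, PGL2, SHR, DIR1, BGAL16 and DOT3, and the higher ones were HSP17.6A, FLC, PR4, TI1, EXT4, ZIP4, HSP17.6II, PLAT2, KAT3 and HCHIB, together with AT5G64120, which the gene table lists as peroxidase PRX71. DOT3, PLAT2, KAT3 and HCHIB are named for belonging to this set, seen after their values. In shr, DOT3, a gene needed for normal leaf venation, was lower by 0.88 (adjusted p = 0.00156, limma). The potassium channel subunit gene KAT3 was higher by 0.74 (adjusted p = 0.00618, limma) and the basic chitinase gene HCHIB by 0.73 (adjusted p = 0.00901, limma).

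Among the lower genes, the difference was largest for THA2, which encodes a threonine aldolase that splits threonine into glycine and acetaldehyde. THA2 stood at 8.95, 8.83 and 8.85 in scr, at 6.12, 6.02 and 5.89 in shr and at 8.33, 8.21 and 8.16 in WT. The shr arrays lay over 2 log2 units below every other array, and the difference of -2.87 ± 0.08 (SE) corresponds to 7.30-fold (adjusted p = 1.79e-06, limma). The WT arrays lay between the mutants: against WT the difference was 0.64 in scr (adjusted p = 0.0183) and -2.23 in shr (adjusted p = 1.70e-05, both limma). Both of these comparisons share the WT arrays.

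A pair of genes for 6-phosphogluconolactonase, an enzyme of the oxidative pentose phosphate pathway, was also lower in shr. PGL2 stood at 8.16, 8.14 and 8.18 in scr and at 6.53, 6.11 and 6.64 in shr, with no overlap, and WT lay between them at 7.67, 7.86 and 7.41 (difference -1.73 ± 0.15, adjusted p = 0.00166, limma). PGL5 stood at 7.91, 7.27 and 7.27 in scr and at 6.27, 5.58 and 4.82 in shr, below WT at 8.23, 8.28 and 8.20. Its difference of -1.93 ± 0.32 passed in the fit to all arrays (adjusted p = 0.0271, limma), but not once any single WT or scr array, or shr replicate 2, was left out (highest adjusted p 0.0968). AT1G06080, the delta 9 desaturase gene ADS1 of lipid metabolism, stood at 8.95, 9.32 and 9.05 in scr and at 7.03, 7.03 and 5.57 in shr. The shr arrays were all lower, shr replicate 3 the lowest (difference -2.57 ± 0.34, adjusted p = 0.0149, limma), and the call was lost without any 1 scr array (adjusted p up to 0.0672).

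DIR1, a lipid transfer protein that carries a signal in systemic acquired resistance, stood at 9.74, 9.58 and 9.59 in scr and at 8.49, 8.26 and 8.15 in shr. WT overlapped scr at 9.52 to 9.85, and shr was lower by 1.33 ± 0.11 (adjusted p = 0.00156, limma). BGAL16, a beta-galactosidase gene, stood at 5.49, 5.60 and 5.45 in scr and at 4.24, 4.48 and 4.39 in shr (difference -1.14 ± 0.10, adjusted p = 0.00156, limma), with WT between at 4.80 to 5.07. The shr values of BGAL16 lay near 4.47, the lower quartile of all values. AT5G25770, which has no symbol in the gene table, was lower by 1.4 ± 0.09 (adjusted p = 0.000374, limma) and, like DIR1 and BGAL16, passed in all 9 fits. The protein kinase gene CIPK20 (difference -0.90, adjusted p = 0.0498) and the purple acid phosphatase gene PAP15 (-0.88, adjusted p = 0.0321, both limma) were lower with narrower margins. CIPK20 lost its call when any single WT or scr array, or shr replicate 2, was left out, and PAP15 without WT replicate 2, any 1 scr array or shr replicate 2. AT5G62280, also without a symbol, was lower by 1.66 (adjusted p = 0.0333, limma), passed, among the fits that left out 1 array, only without shr replicate 3, and in shr held 6.83, 6.65 and 7.99 against 8.77 to 8.87 in scr.

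**Figure D2:**
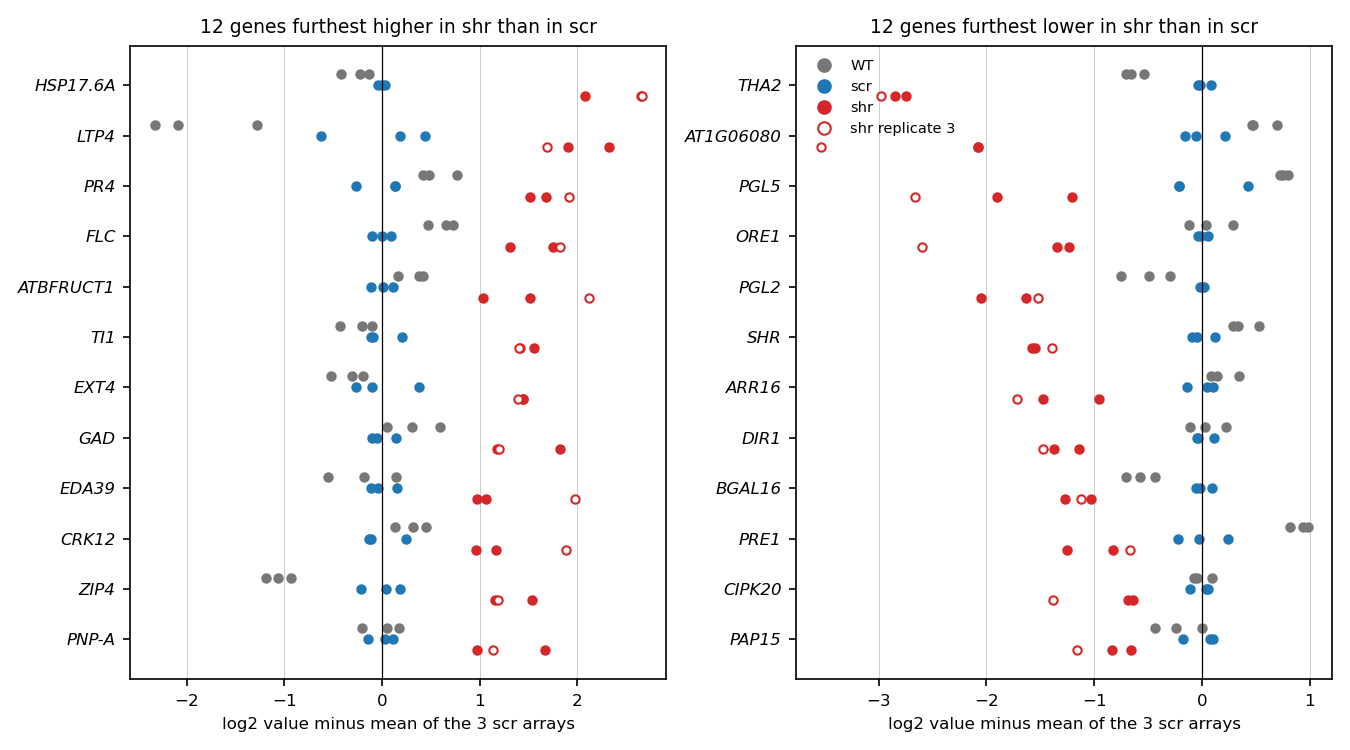
Values of single arrays for the 12 genes with a symbol that were furthest higher (left) and furthest lower (right) in shr among loci past an adjusted p of 0.05, as log2 value minus the mean of the 3 scr arrays. Grey, blue and red points are WT, scr and shr arrays and the open red circle is shr replicate 3. The shr arrays lie clear of the scr arrays in every row, which was a condition for choosing these genes. WT lies on either side of scr.

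Among the higher genes past the threshold, HSP17.6A had the largest difference of those with a symbol of their own. This small heat shock protein gene stood at 3.96, 3.89 and 3.93 in scr, 3.70, 3.80 and 3.51 in WT and 6.01, 6.58 and 6.59 in shr. The scr and WT values are near the lowest of the table, so the 5.52-fold difference (2.46 ± 0.15, adjusted p = 0.000374, limma) is measured against a weak signal. AT5G64120, encoding peroxidase PRX71, stood at 5.11, 4.72 and 4.93 in scr and 6.75, 7.53 and 7.94 in shr, while WT held 4.90 to 5.02 (difference 2.49 ± 0.25, adjusted p = 0.00444, limma). The groups did not overlap, and all 9 fits called both genes.

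PR4, a hevein-like pathogenesis-related protein, stood at 7.16, 7.56 and 7.56 in scr and at 8.95, 9.11 and 9.34 in shr, with WT between at 7.85 to 8.20 (difference 1.71 ± 0.15, adjusted p = 0.00166, limma). The trypsin inhibitor gene TI1 stood at 5.97, 5.99 and 6.28 in scr and at 7.49, 7.64 and 7.48 in shr (1.46 ± 0.11, adjusted p = 0.00156, limma). EXT4, which encodes an extensin, a structural wall glycoprotein, stood at 6.46, 6.29 and 6.94 in scr and at 8.00, 8.00 and 7.95 in shr (1.43 ± 0.16, adjusted p = 0.00683, limma). For all 3 genes the shr arrays were the highest of the 9. The unnamed locus AT1G65500 was higher by 1.46 ± 0.13 (adjusted p = 0.00234, limma) and passed in all 9 fits as well.

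The remaining large rises were less steady over the arrays. ATBFRUCT1, a cell wall invertase, stood at 5.09, 4.87 and 4.99 in scr and at 6.50, 6.01 and 7.10 in shr (1.55, adjusted p = 0.0193, limma). The glutamate decarboxylase gene GAD (1.4, adjusted p = 0.0160) and PNP-A, a natriuretic peptide-like protein gene (1.26, adjusted p = 0.0165, both limma), had non-overlapping groups too. These 3 genes lost their calls without any 1 scr array (adjusted p up to 0.0853). The receptor-like kinase gene CRK12 (1.34, adjusted p = 0.0260) lost its call without any 1 scr array or WT replicate 3. EDA39, listed in the gene table as an IQ-motif protein (1.34, adjusted p = 0.0498), lost it without any single WT or scr array or shr replicate 2 (both limma). AT3G16530, without a symbol, stood at 7.86, 7.68 and 7.96 in scr and at 9.77, 9.36 and 11.13 in shr (2.25, adjusted p = 0.0258, limma). It lost its call when any single WT or scr array was left out (highest adjusted p 0.106).

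Genes were then read by role, in 34 lists written by locus plus the plastid-encoded and mitochondria-encoded loci, with 672 of 757 listed loci measured. Each list is described by its members past the threshold and its median, beside 1.34% and -0.01 over all loci. Where counts at an unadjusted p under 0.05 are given, the shares over all loci were 8.45% higher and 8.24% lower, 16.7% in all. Counts without shr replicate 3 stand beside the shares of that fit. These were 2.94% past the threshold (1.91% higher and 1.03% lower), and unadjusted 9.73% higher and 8.76% lower, 18.5% in all. Medians without shr replicate 3 are given where they moved by over 1.5 times or changed sign. In the network around SHR and SCR, 0 of 13 measured members were higher and 2 were lower, namely SHR and SCL23, a GRAS factor closely related to SCR, and the median was -0.04. SCL23 stood at 6.58, 6.74 and 6.68 in scr and at 5.69, 5.72 and 6.15 in shr, with WT at 6.29, 6.23 and 6.70. The difference was -0.81 ± 0.15 (adjusted p = 0.0455, limma), and without shr replicate 3 it was -0.96 (adjusted p = 0.0072). It passed only without shr replicate 3 or without WT replicate 3 among the fits that left out 1 array. JKD, a zinc finger partner of both factors in the root, stood at 5.67, 5.55 and 5.87 in scr and at 4.63, 5.09 and 5.46 in shr. It passed without shr replicate 3 (-0.84, adjusted p = 0.0144, limma) but not with all arrays (-0.64, adjusted p = 0.123, limma).

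Cytokinin genes moved in both directions. Type-A response regulators are induced by cytokinin and damp its signalling, and 2 of 10 were lower in shr and 0 higher, with a median of -0.36 and 9 of 10 differences below 0. ARR16 stood at 7.01, 6.96 and 6.77 in scr and at 5.95, 5.43 and 5.19 in shr, with WT at 6.99 to 7.25 beside scr (-1.38 ± 0.18, adjusted p = 0.0128, limma). ARR6 stood at 7.37, 7.35 and 7.32 in scr and at 6.80, 6.61 and 6.62 in shr (-0.67 ± 0.08, adjusted p = 0.0104, limma). Neither gene overlapped between the mutants. Both lost their calls without scr replicate 1 or 2, with adjusted p of up to 0.0657 for ARR16 and 0.0541 for ARR6, and passed without shr replicate 3. Without that array the list's median was -0.17, since ARR8 and ARR9 were lowest in it (5.01 against 6.14 to 6.52 in the other shr arrays for ARR8, and 6.94 against 7.76 to 8.06 for ARR9).

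Of 21 other cytokinin genes, 2 were higher and 1 lower (median -0.02, and -0.04 without shr replicate 3). Those higher were AHP3, a phosphotransfer protein of the signalling chain (0.48 ± 0.08, adjusted p = 0.0252, limma), and ABCG14, which exports cytokinin from the root to the shoot (0.46 ± 0.08, adjusted p = 0.0391, limma). CKX1, which breaks cytokinin down, was lower by 0.55 ± 0.11 (adjusted p = 0.0475, limma). ABCG14 stood at 6.96, 6.92 and 7.02 in scr and at 7.39, 7.43 and 7.46 in shr, above WT at 6.35 to 6.64. All 3 calls were lost without any 1 scr array or without shr replicate 2, and each also without at least 1 WT array. ABCG14 and CKX1 lost theirs without shr replicate 1 as well.

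Flowering genes gave 1 rise and 1 fall among 22 (median -0.07). FLC, the MADS-box repressor of flowering, stood at 4.36, 4.46 and 4.55 in scr, 5.19, 5.11 and 4.93 in WT and 6.21, 5.77 and 6.28 in shr. The 3 genotypes did not overlap, with scr lowest and shr highest, and shr exceeded scr 3.09-fold (1.63 ± 0.14, adjusted p = 0.00156, limma), a call made in all 9 fits. The scr values of FLC lay near 4.47, the lower quartile of all values, so its difference is measured against a weak signal. Against WT, the difference was -0.62 in scr (adjusted p = 0.112) and 1.01 in shr (adjusted p = 0.0038, both limma, sharing the WT arrays). SOC1, a promoter of flowering that FLC represses, stood at 7.09, 6.68 and 6.84 in scr and at 5.78, 6.16 and 6.03 in shr, with WT at 6.57 to 7.09 overlapping scr. It was lower in shr by 0.88 ± 0.16 (adjusted p = 0.0393, limma) and lost its call without WT replicate 1, any 1 scr array, or shr replicate 1 or 2 (highest adjusted p 0.135). All 6 flower organ and floral identity markers (AP1, AP3, PI, AG, SEP3 and LFY) had means below 4.47, the lower quartile of all values. The log2 of their signals summed on the linear scale was 6.54 to 6.67 in scr and 6.51 to 6.64 in shr. Summed levels of other markers are given in the same way.

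Heat shock genes that passed the test were all higher in shr. Among small heat shock proteins, chaperones that hold unfolded proteins, 3 of 12 measured were higher and 0 lower, with a median of 0.39 (0.17 without shr replicate 3). Beside HSP17.6A, HSP17.6II stood at 4.27, 4.17 and 4.34 in scr and at 5.13, 5.2 and 5.25 in shr (0.93 ± 0.08, adjusted p = 0.00156, limma), called in all 9 fits. AT1G53540 stood at 4.06, 4.39 and 4.22 in scr and at 4.97, 5.76 and 5.65 in shr (1.24 ± 0.19, adjusted p = 0.0218, limma). In both, WT overlapped scr or lay below it and shr stood clear of it. All scr values of both genes lay below 4.47, the lower quartile of all values, so their differences are measured against a weak signal. Without shr replicate 3 AT2G29500 passed too (0.75, adjusted p = 0.0144, against 0.64, adjusted p = 0.0554, with all arrays, limma), so the count was 4 of 12.

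Of 21 large chaperones and heat shock factors, 2 were higher and 0 lower (median 0.11). HSP90.1 stood at 6.23, 5.95 and 5.90 in scr and at 6.76, 7.17 and 6.80 in shr, with WT lower than both at 5.07 to 5.38 (0.89 ± 0.14, adjusted p = 0.0229, limma). HSP70b stood at 6.01, 5.95 and 5.94 in scr and at 6.43, 6.86 and 6.75 in shr, with WT at 5.83 to 5.88 (0.71 ± 0.10, adjusted p = 0.0192, limma). The heat shock factor HSFA2 (0.05, adjusted p = 0.858) and the disaggregase HSP101 (0.36, adjusted p = 0.203) did not pass (both limma). AT1G53540 and HSP90.1 lost their calls without any 1 scr array or shr replicate 2, and HSP70b without any 1 scr array.

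**Figure D3:**
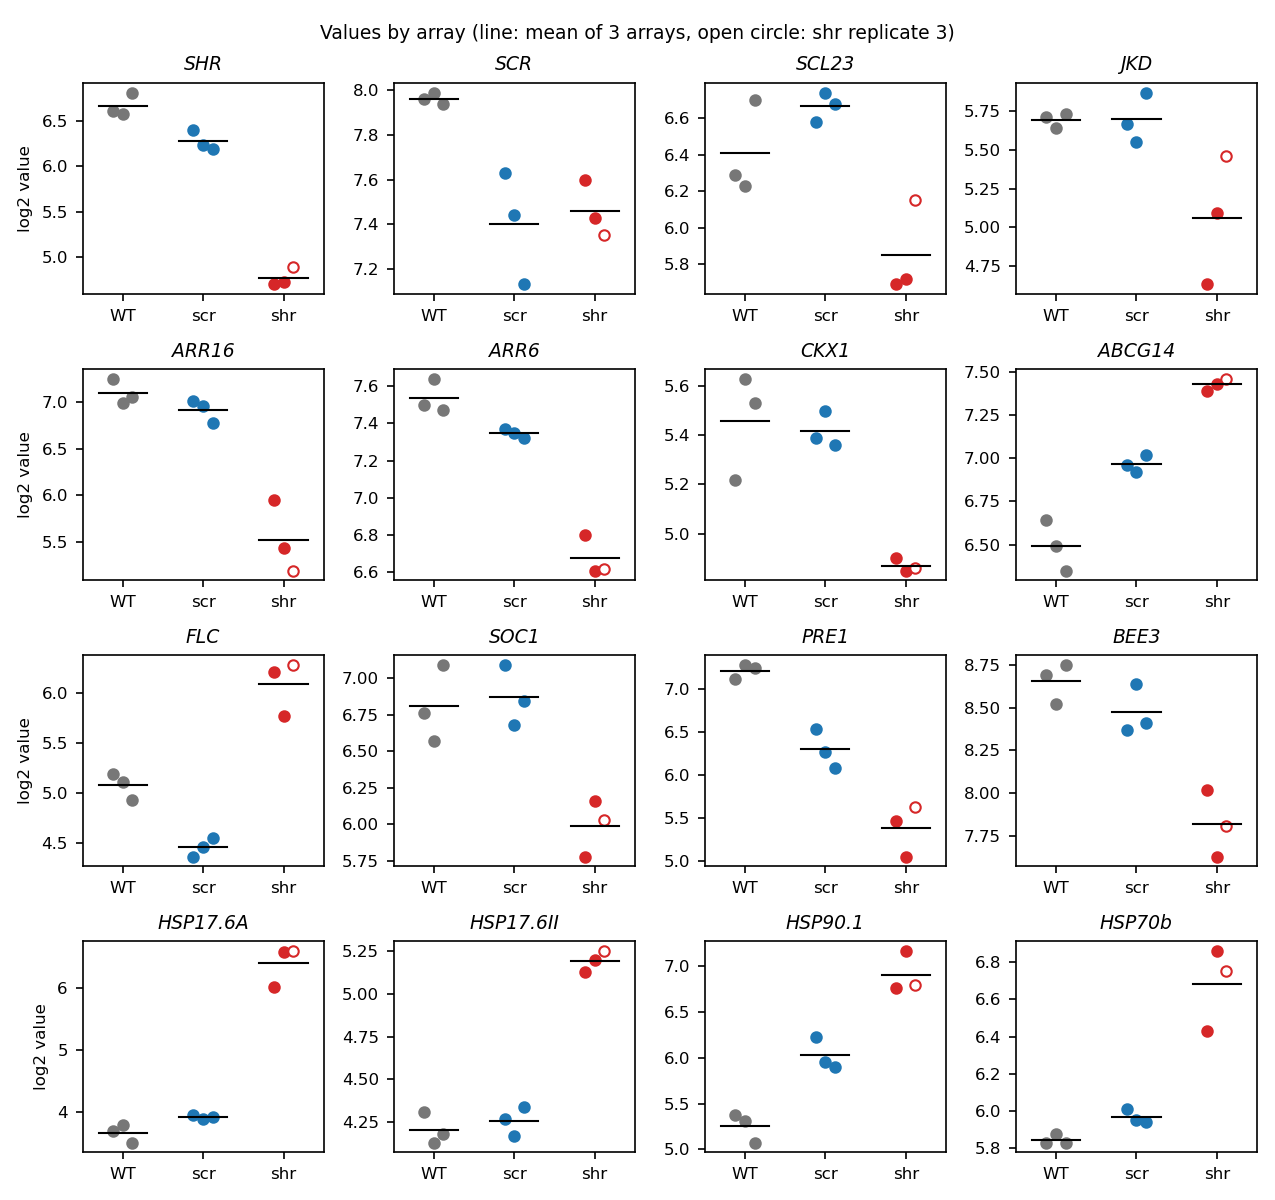
Log2 values of single arrays for 16 genes of the SHR-SCR network, cytokinin, flowering, growth and heat shock lists in WT (grey), scr (blue) and shr (red); lines are means of 3 arrays, open circles are shr replicate 3 and each panel has its own axis range. SHR, ARR16, ARR6 and SOC1 are lower in shr than in every scr array, FLC and the 4 heat shock genes are higher, and SCR overlaps between the mutants.

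The growth-promoting bHLH genes and the auxin gene that passed with all arrays were lower. In the list of brassinosteroid synthesis and growth bHLH genes, 0 of 15 were higher and 2 lower, with a median of 0.03. PRE1, which promotes cell elongation, stood at 6.54, 6.27 and 6.08 in scr and at 5.47, 5.05 and 5.63 in shr, against 7.12 to 7.28 in WT (-0.92 ± 0.16, adjusted p = 0.0339, limma). BEE3, an early brassinosteroid response gene, stood at 8.37, 8.64 and 8.41 in scr and at 8.02, 7.63 and 7.81 in shr (-0.65 ± 0.12, adjusted p = 0.0396, limma). For both genes every shr array lay below every other array. Both lost their calls when any single WT or scr array, or shr replicate 2, was left out (highest adjusted p 0.114 for PRE1 and 0.133 for BEE3).

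Without shr replicate 3 the same list held 6 lower members and 1 higher (median -0.32). HBI1, which promotes growth downstream of brassinosteroids, held 8.68 and 8.85 in shr replicates 1 and 2 and 10.10 in replicate 3, against 9.54 to 9.85 in scr (without replicate 3, -0.88, adjusted p = 0.00472, limma). BEE2 held 8.75 and 8.83, and 9.37 in replicate 3, against 9.34 to 9.52 in scr (-0.65, adjusted p = 0.00568 without it). PAR1, which holds growth back in shade, held 5.0 and 4.85, and 7.74 in replicate 3, against 5.35 to 5.94 in scr (-0.75, adjusted p = 0.0336 without it). In these 3 genes replicate 3 therefore lay within or above the scr range while the other shr arrays lay below it. BEE1 was the other lower member and ROT3, a brassinosteroid synthesis enzyme, the higher.

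Of 21 auxin response genes, 0 were higher and 1 lower (median 0.08). Without shr replicate 3, 1 was higher (GH3.3, which conjugates auxin, 0.58, adjusted p = 0.0236, limma), 2 were lower (SAUR63 and SAUR65) and the median was -0.16. The auxin-induced gene SAUR63 stood at 7.76, 7.88 and 7.49 in scr and at 6.93, 7.04 and 6.88 in shr (-0.76 ± 0.12, adjusted p = 0.0242, limma), and it lost its call without scr replicate 1 or 2 or shr replicate 2. Of 18 leaf growth regulators 0 passed with all arrays (unadjusted, 2 higher and 4 lower, median -0.02, and -0.09 without shr replicate 3). ARL, which promotes cell expansion in lateral organs, was furthest from 0 at -0.76 (adjusted p = 0.0676). It passed without shr replicate 2 (-0.95, adjusted p = 0.0331) and under a common median (-0.80, adjusted p = 0.0445, both limma), but in no other alternative. ARGOS, an auxin-induced gene that enlarges organs, passed without shr replicate 3 (-0.75, adjusted p = 0.0250, limma) but not with all arrays (-0.67, adjusted p = 0.0545, limma). No gibberellin gene of 21 (3 higher and 0 lower unadjusted, median 0.05, and 0.00 without shr replicate 3, GA2OX2 furthest at 0.45) and no cell wall expansion gene of 31 (1 higher and 1 lower unadjusted, median 0.18, and 0.07 without shr replicate 3, EXLA1 furthest at 1.81) passed. EXLA1 held 3.72, 4.3 and 9.05 in shr, so 1 array set its difference. Without shr replicate 3, 2 gibberellin genes were lower and, of the cell wall genes, 3 were higher and 1 lower.

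Cell cycle genes, the subject of the study's title, did not pass between the mutants with all 9 arrays, and their differences were small. Of 40 DNA replication genes 0 passed (unadjusted p under 0.05 in 5, 4 lower and 1 higher), their median was -0.09 (-0.05 without shr replicate 3) and their range -0.42 to 0.29. CDC6, which loads the replicative helicase, was furthest from 0, with 5.39, 5.45 and 5.5 in scr, 4.85, 5.0 and 5.25 in shr and 5.46 to 5.72 in WT. Its groups did not overlap (-0.42 ± 0.11, adjusted p = 0.115), and it passed without shr replicate 3 (-0.52, adjusted p = 0.0268, limma). Of 20 replication-dependent histones 0 passed (2 lower at an unadjusted p under 0.05), with a median of -0.07 (-0.02 without shr replicate 3) and HIS4 furthest at -0.33.

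In mitosis and cytokinesis 0 of 27 passed (5 lower and 1 higher unadjusted, but 1 lower and 1 higher without shr replicate 3). The median was -0.12 (-0.05 without that array), 22 of 27 differences lay below 0, and 3XHMG-BOX2 was furthest at -0.35 ± 0.08 (adjusted p = 0.0809, limma). The list's median over the scr mean was -0.05, -0.07 and -0.26 in shr replicates 1, 2 and 3. Of 16 G1/S regulators 0 passed (2 higher unadjusted, median 0.09), with the D-type cyclin CYCD4;1 furthest at 0.35 (adjusted p = 0.0658, limma). Of 14 CDK inhibitors 0 passed (2 higher and 1 lower unadjusted, median 0.13, and 0.07 without shr replicate 3), with AT1G08180 furthest at 0.34 (adjusted p = 0.305, limma). A value that does not pass does not show that the mutants were alike: with 3 arrays a group, differences of the size of 0.35 did not reach the threshold.

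Transport and nutrient genes included several rises. In the sulfur deficiency list 2 of 18 were higher and 0 lower (median 0.34). SULTR1;2, a sulfate uptake transporter, stood at 6.57, 6.32 and 6.23 in scr and at 7.51, 7.64 and 7.43 in shr, above WT at 4.58 to 5.54 (1.15 ± 0.21, adjusted p = 0.0396, limma). BGLU28, a beta-glucosidase induced by sulfur deficiency, stood at 7.76, 7.83 and 7.35 in scr and at 8.99, 8.67 and 8.63 in shr, with WT at 4.79 to 5.32 (1.12 ± 0.18, adjusted p = 0.0244, limma). In both genes scr lay between WT and shr, and both calls were lost without any 1 scr array or shr replicate 2; SULTR1;2 also lost its call without WT replicate 3 or shr replicate 1. Without shr replicate 3 the count was 5 of 18. LSU1, a marker of low sulfur, then differed by 1.37 (adjusted p = 0.0215, limma), with 9.93 and 9.96 in the other shr arrays, 8.19 in replicate 3 and 8.32 to 8.71 in scr.

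Of 25 phosphate starvation genes 0 passed with all arrays (7 higher and 1 lower unadjusted, median 0.13), and 8 were higher and 0 lower without shr replicate 3 (median 0.30). They were PS2, MGD3, PEPC1, MGD2, PLDP2, SPX3, SQD2 and PHO1;H1. PS2, a phosphatase induced by low phosphate, stood at 6.42, 5.47 and 5.56 in scr and at 8.35, 8.15 and 5.51 in shr, against 3.99 to 4.67 in WT. It differed by 2.44 without replicate 3 (adjusted p = 0.00349) and by 1.52 with it (adjusted p = 0.293, limma). MGD3, which makes galactolipids that replace phospholipids, stood at 5.84, 5.54 and 5.48 in scr and at 7.27, 6.81 and 5.83 in shr (1.42, adjusted p = 0.00299, without replicate 3, limma). In both genes replicate 3 lay within the scr range and the other shr arrays above it.

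Of 30 iron and zinc genes 1 was higher and 0 lower (median -0.01, and 0.09 without shr replicate 3). It was ZIP4, a transporter induced by zinc shortage, at 6.60, 6.86 and 7.0 in scr and 8.36, 7.98 and 8.01 in shr, with WT at 5.63 to 5.89. The 3 genotypes did not overlap, with scr between the others, and the call (1.3 ± 0.14, adjusted p = 0.00537, limma) was made in all 9 fits. ZIP5 passed without shr replicate 3 (1.25, adjusted p = 0.0213, limma) but not with all arrays (1.65, adjusted p = 0.0545, limma). Of 14 nitrate response genes 1 was lower and 0 higher (median 0.10). Without shr replicate 3, 2 were lower and the median was -0.13. The lower gene with all arrays was the nitrite reductase gene NIR1, at 10.67, 10.64 and 10.67 in scr and 10.13, 10.12 and 10.06 in shr (-0.56 ± 0.07, adjusted p = 0.0144, limma). Its groups did not overlap, and its call was lost without any 1 scr array.

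Among 11 lipid transfer and EARLI1-type genes 2 were higher and 0 lower, with a median of 0.95 and 10 of 11 differences above 0. LTP4 stood at 7.37, 6.30 and 7.11 in scr and at 8.83, 9.25 and 8.62 in shr, with WT at 4.6 to 5.65, so that the 3 genotypes did not overlap (1.98 ± 0.33, adjusted p = 0.0279, limma). LTP2, an abundant protein of the leaf cuticle, stood at 10.68, 10.71 and 11.01 in scr and at 11.52, 11.37 and 11.39 in shr (0.63 ± 0.11, adjusted p = 0.0381, limma). LTP4 lost its call without any 1 scr array, WT replicate 1 or shr replicate 2. LTP2 lost its call without scr replicate 1 or 2, WT replicate 2 or 3, or shr replicate 1 or 2.

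Defence lists gave 1 rise each. Of 19 jasmonate and wounding genes 1 was higher and 0 lower (PR4, median 0.12, and 0.25 without shr replicate 3), and without shr replicate 3 the lipoxygenase genes LOX3 and LOX4 passed as well. Of 21 salicylic acid defence genes 1 was higher and 0 lower (median 0.08, and 0.15 without shr replicate 3). It was CBP60G, an activator of salicylic acid synthesis, at 4.82, 5.15 and 4.99 in scr and 5.55, 5.94 and 6.03 in shr, where WT at 5.27 to 5.62 overlapped shr (0.86 ± 0.15, adjusted p = 0.0342, limma). The call was lost without any 1 scr array, WT replicate 1 or 3, or shr replicate 2. PR5, a thaumatin-like defence protein, stood at 5.11, 5.44 and 5.42 in scr and 6.49, 6.48 and 5.75 in shr, and passed only without shr replicate 3 (1.16, adjusted p = 0.00115, against 0.92, adjusted p = 0.0534, with all arrays, limma).

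Several further lists had no member past the threshold with all arrays. They were abscisic acid, cold and water deficit (0 of 33, median -0.05), sugar starvation (0 of 24, median 0.24), anthocyanin and flavonoid synthesis (0 of 22, median -0.04), aliphatic glucosinolates (0 of 17, median -0.54), indole glucosinolates (0 of 9, median 0.15) and the circadian clock (0 of 19, median -0.09). At an unadjusted p under 0.05 in limma, the higher and lower members numbered 3 and 2, 4 and 1, 0 and 1, 1 and 2, 3 and 1, and 0 and 1, in the same order. Leaving out shr replicate 3 changed the medians of the first 4 lists to 0.15, -0.03, 0.68 and -0.11. The aliphatic glucosinolate median over the scr mean was -0.14, -0.09 and -1.50 in shr replicates 1, 2 and 3, and that of sugar starvation was -0.04, 0.00 and 0.95, so replicate 3 set both. Without it ERD5 in sugar starvation (1.21, adjusted p = 0.0487) and MAM3 in aliphatic glucosinolate synthesis (0.97, adjusted p = 0.0386, both limma) were higher. CYP707A2, which inactivates abscisic acid, was furthest in the first at -1.58 (adjusted p = 0.0508) and passed without shr replicate 3 (-1.20, adjusted p = 0.0165, limma). It also passed without shr replicate 1 (adjusted p = 0.0416), under a replicate block (0.0407), a common median (0.0364) or array weights (0.0239), and without dim loci (0.0492, all limma). It did not pass without any other single array, with the scr and shr arrays alone or under a trended robust prior. The clock output gene CDF1 was furthest in the last, at -0.95 (adjusted p = 0.175). As for CYP707A2, shr replicate 3 held the extreme shr value of the furthest gene in the other 4 lists. AOP2, of aliphatic glucosinolate synthesis, held 7.97, 8.10 and 5.48 in shr. CYP81F2, of indole glucosinolate synthesis, held 5.35, 5.09 and 7.58. ERD5, a proline dehydrogenase, held 7.46, 6.50 and 10.84, and AT1G56650, the anthocyanin regulator PAP1, held 9.33, 9.13 and 4.36. The median of the anthocyanin list over the scr mean was 0.95, 0.26 and -1.26 in shr replicates 1, 2 and 3.

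Photosynthesis and organelle genes showed small differences. Of 24 nuclear photosynthesis genes 0 passed (2 lower unadjusted, median -0.05), with LHCB4.3 furthest at -0.53 (adjusted p = 0.247, limma). Under a replicate block LHCB4.3 passed (-0.53, adjusted p = 0.0372, limma), but in no other alternative. Of 73 plastid-encoded loci 0 passed (12 lower and 2 higher unadjusted, median -0.06), with ATCG00690 furthest at -0.53. Of 31 mitochondria-encoded loci 0 passed (2 lower and 1 higher unadjusted, median -0.06, and -0.12 without shr replicate 3), with ATMG01220 furthest at 0.75 (adjusted p = 0.0819, limma).

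**Figure D4:**
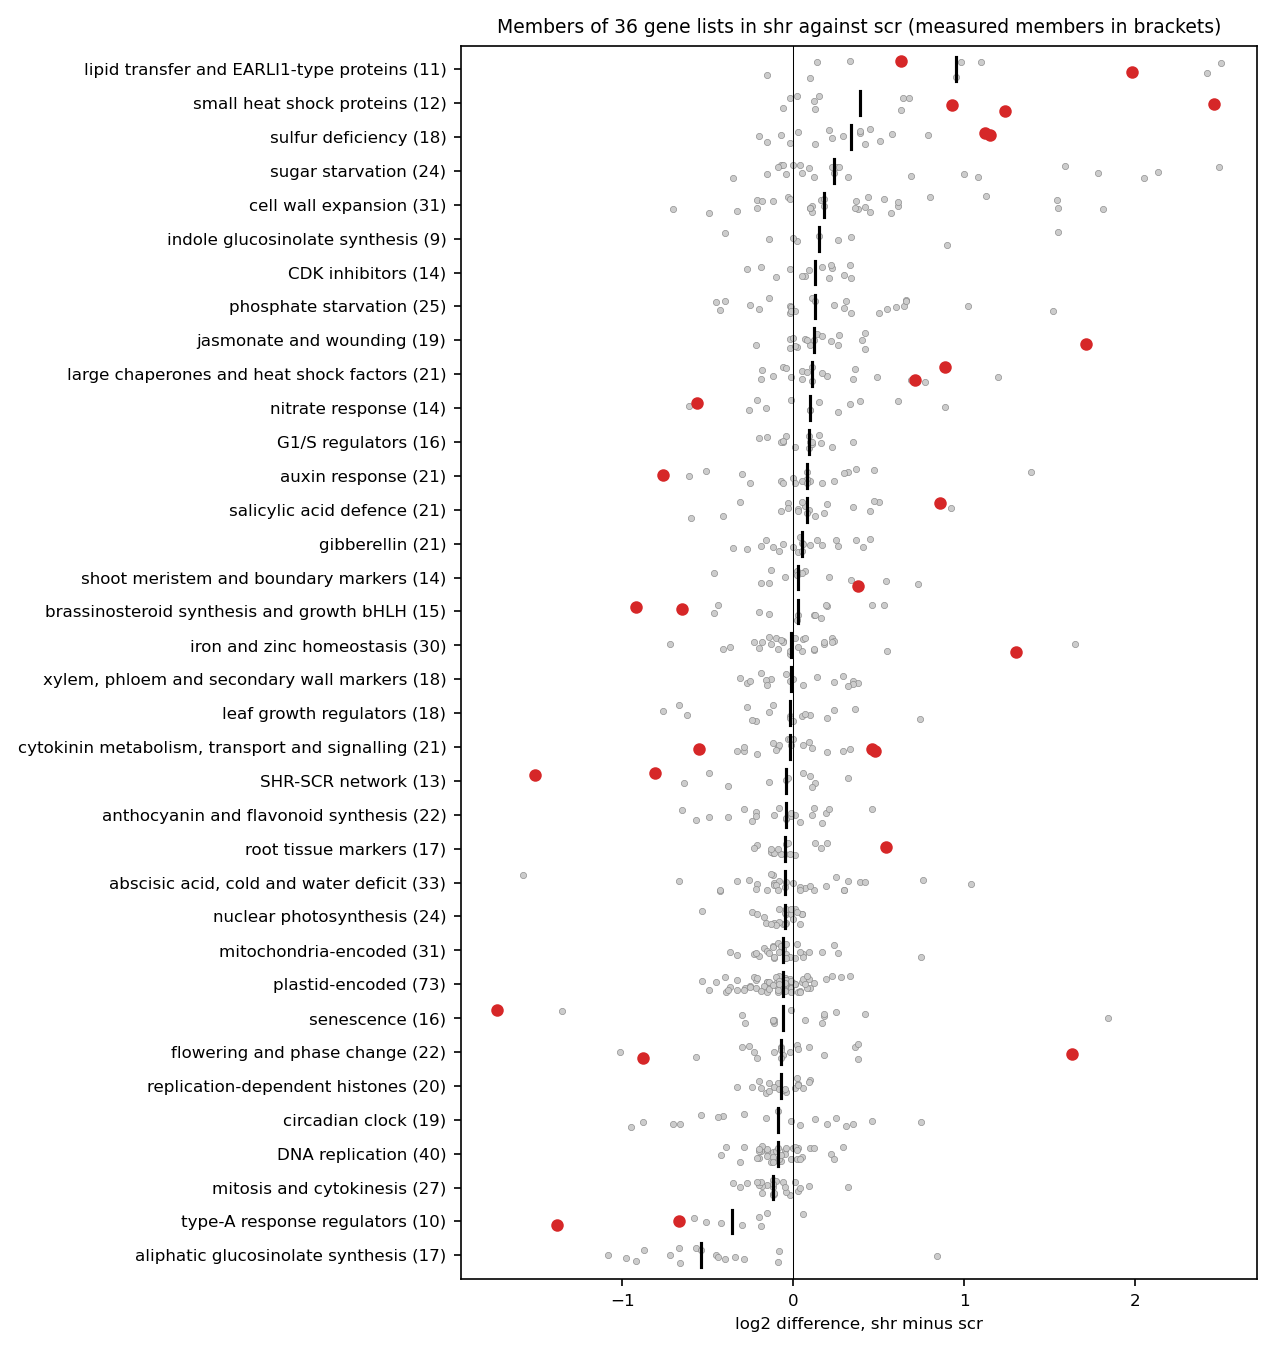
Log2 difference, shr minus scr, of every measured member of 36 gene lists, ordered by the list's median (black tick); red points passed an adjusted p of 0.05 with all 9 arrays, grey points did not, and vertical scatter within a row has no meaning. The highest median is that of lipid transfer genes (0.95) and the lowest that of aliphatic glucosinolate genes (-0.54), none of which passed; without shr replicate 3 the latter is -0.11.

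Markers of tissues were read beside these lists. Of 17 measured root markers 1 was higher and 0 lower (median -0.05, and -0.10 without shr replicate 3): PYK10, a beta-glucosidase of ER bodies that is abundant in roots, at 10.99, 11.21 and 11.09 in scr and 11.68, 11.64 and 11.59 in shr (0.54 ± 0.08, adjusted p = 0.0195, limma). It lost its call without any 1 scr array or shr replicate 2. Of the other 16, 8 had means below the lower quartile, among them RHD6, PLT1, PLT2 and MYB36. The summed level of the 16 was 8.63 to 8.72 in scr and 8.59 to 8.72 in shr. Of 4 leaf markers 2 were measured, CA1 and RCA, both enzymes of carbon fixation or its activation, with a summed level of 14.45 to 14.58 in scr and 14.27 to 14.47 in shr.

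Of 14 shoot meristem and boundary genes 1 was higher (median 0.03, and 0.09 without shr replicate 3), KNAT6, by 0.38 ± 0.07 (adjusted p = 0.0498, limma), a call that, of the 9 fits leaving out 1 array, only the fit without shr replicate 3 made, and that was lost under the common median (adjusted p = 0.0643). STM stood at 6.18 to 6.32 in scr and 6.66 to 7.03 in shr (adjusted p = 0.0977), and KNAT1 at 5.57 to 6.06 in scr and 6.20 to 6.62 in shr (adjusted p = 0.0628, limma). The summed level of STM, KNAT1 and CUC2 was 7.19 to 7.44 in scr and 7.71 to 7.99 in shr, so these ranges did not overlap. Of 18 xylem, phloem and secondary wall genes 0 passed (5 higher and 4 lower unadjusted, median -0.01, and 0.05 without shr replicate 3), with the laccase gene LAC4 furthest at 0.38 (adjusted p = 0.0888, limma). The summed level of 8 markers of xylem and phloem was 11.34 to 11.51 in scr and 11.60 to 11.82 in shr. SUC2 was the highest of the 8, with a mean of 10.73, and so weighs most in that sum. What these differences in single markers and in marker sums contribute to the results above was not tested.

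Of 16 senescence genes 0 were higher and 1 lower (median -0.06, and 0.07 without shr replicate 3): ORE1, a NAC factor that promotes leaf senescence, at 7.20, 7.27 and 7.17 in scr and 5.86, 5.98 and 4.61 in shr, with WT at 7.09 to 7.50 (-1.73 ± 0.31, adjusted p = 0.0372, limma). Every shr array was below every other array, replicate 3 the furthest. The call was lost when any single WT or scr array was left out (highest adjusted p 0.133). The late senescence marker SAG12 had a mean below the lower quartile.

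Leaving out shr replicate 3 brought 342 further loci past the threshold, and in 132 of them that array lay on the other side of the scr mean from the remaining shr arrays, a count that the choice of these loci favours. The 5 with the smallest p in that fit were BCA3, AT5G61290, JAL23, AT3G05400 and PR5. BCA3, a beta carbonic anhydrase gene, stood at 6.91, 6.84 and 6.75 in scr and at 8.70, 8.62 and 7.37 in shr. All shr arrays were above scr, and the difference was 1.83 without replicate 3 (adjusted p = 1.92e-05) and 1.4 with it (adjusted p = 0.0606, limma). JAL23, a jacalin-related lectin gene, stood at 5.86, 5.87 and 5.49 in scr and at 7.92, 7.51 and 6.01 in shr (1.97, adjusted p = 0.000649, without replicate 3, limma). AT5G61290 stood at 7.39 to 7.57 in scr and at 8.74, 8.72 and 7.05 in shr, and AT3G05400 at 8.55 to 8.90 in scr and at 10.19, 9.99 and 8.20 in shr. In these last genes replicate 3 was below all scr arrays and the other shr arrays above them.

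**Figure D5:**
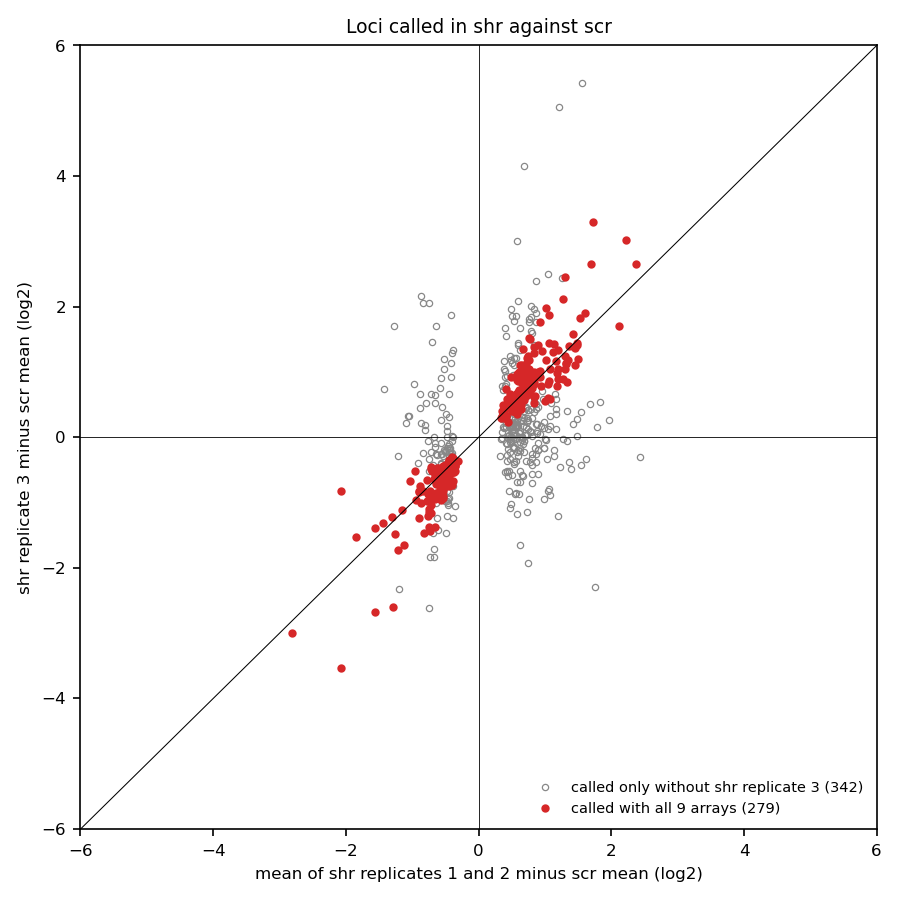
Log2 difference from the scr mean in shr replicate 3 (vertical) against the mean of shr replicates 1 and 2 (horizontal), for 279 loci past an adjusted p of 0.05 with all 9 arrays (red) and 342 loci past it only without shr replicate 3 (grey circles); the diagonal marks equal differences. Replicate 3 helped to choose the red loci and was left out in choosing the grey ones, so their different positions follow from the choice; 132 grey points lie on the other side of 0 in replicate 3.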

How the data were processed

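Total RNA was hybridised to Affymetrix ATH1 arrays, which carry 1 sample each. The deposited log2 values were made by the authors with RMA (background correction, quantile normalisation and probe set summary), per the submitters' processing notes. The version of RMA and how probes were mapped to loci are not stated. The highest value is 14.03.

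With limma 3.58.1 in R 4.3.3, 1 linear model with a mean per genotype was fitted to all 9 arrays, so that WT adds to the error estimate (degrees of freedom 6 residual, 2.99 prior). No block, weight or filter was used. Two-sided p-values were adjusted by the Benjamini-Hochberg method across all 20777 loci (threshold 0.05). Errors are moderated standard errors. The number of arrays limits the precision. The procedure was tested on simulated data, with independent noise of the same spread in all 9 arrays at each locus. No simulated array was outlying, so the test does not cover an array such as shr replicate 3.

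The members and lists were chosen with earlier results of these data known. Named genes are SHR and SCR, the 12 largest rises and falls with a symbol and non-overlapping arrays, the 5 largest each way among loci called in all 9 fits that leave out 1 array, up to 2 loci without a symbol each way, up to 4 called members of a list (or the furthest from 0 where none passed), and the 5 loci of smallest p called only without shr replicate 3. Others are named as examples, seen after their values. Symbols come from a gene table of the assembly TAIR10.1 (20508 loci matched, 269 did not). No coordinates or sequences are given. No 2 arrays held identical values. Alternatives were leaving out each array, the scr and shr arrays alone, a replicate block, a common median, leaving out the lower 40% of loci by mean level, array weights, a trended robust prior and, chosen after seeing the data, the scr and shr arrays alone without shr replicate 3. Groups of 3 arrays were not searched for outlying arrays gene by gene.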

Additional observations from a re-analysis of the deposited data

How the results depend on the processing

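The count of 279 loci ranged from 33 to 610 over the fits that left out 1 array. It was 24 with the scr and shr arrays alone, 353 with those arrays without shr replicate 3, 594 with array weights, 368 under a common median, 291 with a trended robust prior and 245 of 12466 without dim loci. Among the loci left out as dim were HSP17.6A, FLC, HSP17.6II, BGAL16 and AT1G65500, so that fit does not cover them. Array weights gave shr replicate 3 a weight of 0.2445, against 0.8321 to 1.625 for the others. The deviations of scr and shr arrays of equal number from their group means correlated at 0.444, -0.045 and 0.335. Scr and shr arrays of unlike number correlated at -0.445 to 0.072. Deviations within a group are not independent of each other, so these values are tied together. The labels give no pairing, and the main fit used none. With the WT array of equal number, the correlations were 0.277, 0.138 and 0.107 for scr replicates 1, 2 and 3. For shr replicates 1, 2 and 3 they were 0.204, -0.106 and 0.099. Pairs of unlike number stood at -0.186 to 0.052 for WT with scr and at -0.198 to 0.079 for WT with shr. Whether arrays of equal number shared a batch was not tested. With the number as a replicate block 236 loci passed (144 higher and 92 lower), 187 of them among the 279; SHR kept its difference of -1.51 and SCR its 0.06. Of 73 named genes none with a call changed sign in any alternative. Leaving out arrays could not have changed it, since the shr and scr arrays of those genes did not overlap. Without WT arrays 35 lost their calls, under the block 11 and under the common median 1. Calls were gained by 2 named genes under the block, by 2 under the common median and by 9 with array weights. Past the threshold without WT arrays were THA2, HSP17.6A, SHR, TI1, BGAL16, DIR1, PGL2, FLC, PR4, HSP17.6II and SULTR1;2, among others. The causes of these changes were not tested. Probe sets near the lowest values of the table understate differences.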

Other observations

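In 465 loci shr replicate 3 lay at least 1 log2 unit above the mean of shr replicates 1 and 2, and in 516 at least 1 below it. Shr replicate 1 was that far from the mean of the other shr arrays in 357 loci and shr replicate 2 in 192, but those means include replicate 3. Shr replicates 1 and 2 lay at least 1 log2 unit apart in 121 loci. An scr array was that far from the mean of the other scr arrays in at most 71 loci. The genes below are examples among the furthest, were chosen after their values were seen and enter no comparison. DIN10, a gene induced in the dark and by sugar shortage, held 6.32, 6.61 and 12.08 in the shr arrays and 6.63 to 8.09 in scr. SEN1, which responds to darkness and senescence, held 5.2, 6.52 and 9.57 in shr and 5.09 to 5.79 in scr, and DRM1, a marker of dormant buds, held 5.78, 6.16 and 9.71, against 4.97 to 6.0. The touch-induced wall gene XTH22 held 5.84, 7.44 and 11.12, against 5.76 to 7.97. HIR2 held 6.37, 6.54 and 10.32, against 4.52 to 5.29. The inositol oxygenase gene MIOX2 held 5.03, 4.84 and 8.99, against 4.29 to 4.70. On the low side, PYD4 held 10.06, 9.74 and 5.85, against 7.81 to 8.62 in scr. The anthocyanin transferase genes UF3GT and 5MAT held 10.85, 9.75 and 6.77 and 8.77, 8.04 and 4.84, against 9.05 to 10.40 and 7.28 to 8.20 in scr. The wall enzyme gene XTH31 held 12.10, 11.65 and 7.95, against 11.44 to 11.94.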
